A study of Mus musculus with 20 samples.

Results

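The genes of 9 subunits of protein phosphatase 2A (PP2A) were followed in mouse uterus after estradiol (E2), bisphenol A (BPA) or HPTE: Ppp2r2c, Ppp2r2a, Ppp2r2d, Ppp2ca, Ppp2cb, Ppp2r1a, Ppp2r1b, Ppp2r3a and Ppp2r5a. Members were all noncontrol probes that carry one of these gene names, which gave 9 of 27962 gene names and 17 of 41174 probes on the array. For a gene with several probes, the main probe was chosen by its signal, as the one with the highest mean log2 intensity over the 20 arrays, and the other probes are described beside it. This choice was close for Ppp2ca (mean log2 signal 13.41 and 13.29) and Ppp2cb (12.39 and 12.27), and no difference between groups entered it. The study singled out Ppp2r2c as a transcript that E2, BPA and HPTE raised at 2 hr. The set was put together with results of these arrays known, so the tests on Ppp2r2c are not independent evidence of its direction. Counts over the 9 genes are no independent evidence either. All 17 probes were well above background on all 20 arrays, and all were tested.

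PP2A is a serine/threonine phosphatase built from a catalytic subunit (Ppp2ca or Ppp2cb), a scaffold subunit that holds it (Ppp2r1a or Ppp2r1b) and an exchangeable regulatory B subunit that directs the enzyme to its substrates. The B subunits fall into families. Ppp2r2a, Ppp2r2c and Ppp2r2d belong to the B55 family, Ppp2r3a to the B'' family and Ppp2r5a to the B56 family. B55 complexes are known for their part in leaving mitosis, and Ppp2r2c is best known from brain. In the ovariectomized uterus, estrogen sets off an early wave of transcription and a later round of epithelial growth.

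The mice were adult C57bl6/J females, at least 10 weeks old, that were ovariectomized and rested for 10 to 14 days, so every group lacked ovarian hormone, the vehicle group included. Each received 1 subcutaneous injection in a volume of 100 µl. Vehicle animals got sesame oil alone. The others got E2 at a dose of 250 ng, BPA at 750 µg, or HPTE, a metabolite of the pesticide methoxychlor, also at 750 µg. Uteri were taken 2 hr or 24 hr later. Labelling started from 500 ng RNA of 1 uterus, and each labelled sample was hybridized alone on an array. The groups were vehicle (n = 3), E2 2 hr (n = 3), BPA 2 hr (n = 3), HPTE 2 hr (n = 3), E2 24 hr (n = 2), BPA 24 hr (n = 3) and HPTE 24 hr (n = 3). The vehicle arrays were labelled as 24 hr samples, and there was no vehicle group at 2 hr, so the 2 hr groups were also set against them. In the 2 hr comparisons with vehicle, an effect of compound and one of time since injection therefore cannot be told apart. E2 was given at a much lower dose than BPA and HPTE, and only BPA and HPTE were matched in dose. A whole uterus holds many cell types, so that more transcript per cell and more cells of a type cannot be told apart in these values.

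The share of probes well above background ranged from 72.7% to 81.4% per array. All 11 uterine marker genes were well above background on every array. Markers of sperm cells, which do not belong to the uterus, summed to between 59290 and 200256 units of scaled intensity on the vehicle arrays, where 11 of 12 were well above background on every array, and to between 833 and 24537 on the treated arrays. Markers of pancreatic acinar cells summed to 4572009 on replicate 2 and to 277306 on replicate 3 of E2 2 hr and to 7411 and 20258 on the E2 24 hr arrays, whereas the sum was at most 1576 on every other array. Leukocyte markers summed to 90162 and 92685 after E2 at 24 hr, below the 143479 to 160901 of vehicle, and to 116060 to 270880 in the other treated groups. Among the 11 uterine markers, Krt8 and Krt19 of the epithelium were picked out after their values were seen. In the E2 24 hr group Krt8 read 107025 and 134026 units against 30922 to 37141 in vehicle. Krt19 read 60748 and 65500 units there against 13560 to 17228. The sum of all 11 markers was 767832 and 858234 after E2, 741541 to 781774 after HPTE and 616048 to 659348 after BPA at 24 hr. It was 520967 to 538773 in vehicle and 369514 to 506546 in the 2 hr groups. The part of these shifts in the 2 hr and 24 hr results was not tested. Markers of neurons summed to between 2402 and 4410 on all 20 arrays, and 8 of 10 were well above background on every array. The arrays lay on 6 slides, of which the sixth, scanned on a later day, held replicate 3 of BPA 24 hr and replicate 2 of HPTE 24 hr.

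The probes that carry the findings are shown by their first 30 of 60 bases, as the array files give them. Ppp2r2c had a single probe, A_51_P461779, at chr5:36036155-36036214 on the plus strand of the mouse assembly mm7. The 3 probes of Ppp2r1b disagreed, so each is shown. A_52_P601192 (chr9:50859177-50859236, plus strand) is annotated to transcript variant 2, A_52_P494597 (chr9:50846320-50846379, plus strand) is described as variant 2 but lists the RefSeq accessions of both variants, and A_51_P120097 (chr9:50870293-50871290, plus strand) is annotated to transcript variant 1 and spans 998 bases of genome. Whether a probe lies in coding or noncoding exon was not determined here.
Ppp2r2c, A_51_P461779: aagccacagactttgccactttactctgct
Ppp2r1b variant 2, A_52_P601192: ctaagttgtggttctactgtttcattgtga
Ppp2r1b both variants, A_52_P494597: ggcaaagagaataccattgaacatcttctg
Ppp2r1b variant 1, A_51_P120097: agcaaagggaccagcatgtcagttgcatat

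Promoters were read from RefSeq on the assembly GRCm38.p6 (250 bases before to 50 after a start site) for 7 of the 9 genes, with 9 start sites in all. The palindromic estrogen response element (GGTCA, any 3 bases, TGACC) was in 0 of the 9, and in 0.07% of 32851 mouse promoters. A single arm of the element, GGTCA on either strand, was in 6 of the 9, and in 40.5% of all promoters. The start sites of Ppp2r2d lie close together and share the same arm, which is thus counted more than once. The arm of Ppp2r3a lies 28 bases after its start site. Windows of 60 bases around the arm are shown for the B55 and scaffold genes that hold it, with the arm in capitals. They lie at chr5:36868355-36868414 for Ppp2r2c, chr7:138846285-138846344 for Ppp2r2d, chr9:50856773-50856832 for Ppp2r1b and chr17:20945209-20945268 for Ppp2r1a, all on the plus strand. A match of letters is a description and no evidence of binding.
Ppp2r2c: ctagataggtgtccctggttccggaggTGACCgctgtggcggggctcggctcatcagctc
Ppp2r2d: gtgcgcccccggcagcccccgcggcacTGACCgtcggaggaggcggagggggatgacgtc
Ppp2r1b: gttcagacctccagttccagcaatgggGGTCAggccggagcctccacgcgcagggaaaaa
Ppp2r1a: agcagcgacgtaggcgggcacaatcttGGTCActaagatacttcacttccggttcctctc

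Ppp2r2c, the gamma B55 subunit, rose after every compound at 2 hr, and at 24 hr it was above vehicle after E2 and did not pass the test after BPA or HPTE. Levels are given as scaled intensity, the background-subtracted signal in arbitrary units after each array was set to a common 75th percentile of 1679 units. The vehicle arrays read 562, 775 and 524. At 2 hr, the E2 arrays read 2372, 2037 and 2523, the BPA arrays 5695, 7416 and 4140, and the HPTE arrays 7867, 8124 and 7228. All 9 treated arrays at 2 hr lay above all vehicle arrays. At 24 hr, the E2 arrays read 2382 and 3887, the BPA arrays 367, 444 and 446, and the HPTE arrays 370, 802 and 627. Thus both E2 arrays stood above vehicle, whereas the HPTE arrays overlapped vehicle and the BPA arrays lay just below it. The standard deviation within a group was between 0.09 (HPTE 2 hr) and 0.57 (HPTE 24 hr) on the log2 scale.

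**Figure D1:**
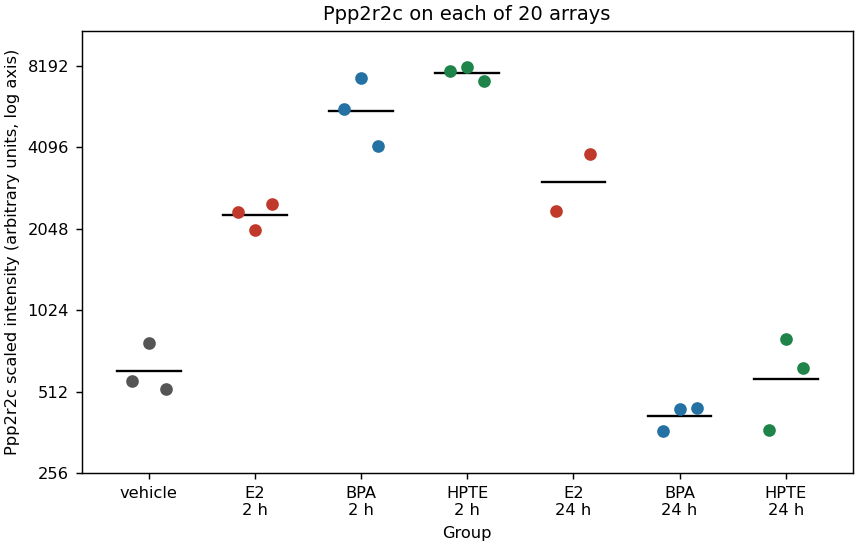
Ppp2r2c scaled intensity (arbitrary units, log axis) on each of 20 arrays, with a point per array, replicates from left to right, and a line at the geometric mean of each group. At 2 hr all treated arrays lie above the vehicle arrays (524 to 775), and at 24 hr only the E2 arrays (2382 and 3887) lie clearly above them.

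Against vehicle, the log2 difference of Ppp2r2c at 2 hr was 1.91 for E2 (SE 0.27, 3.77-fold, limma adjusted p = 8.2e-05), 3.19 for BPA (9.15-fold, adjusted p = 4.1e-07) and 3.66 for HPTE (12.7-fold, adjusted p = 1.1e-07). At 24 hr it was 2.32 for E2 (4.98-fold, adjusted p = 7.5e-06), -0.55 for BPA (adjusted p = 0.20) and -0.10 for HPTE (adjusted p = 0.81). The BPA value at 24 hr passed the test under array quality weights (-0.76, adjusted p = 0.013). Without the E2 2 hr array that held the highest pancreas marker sum the E2 difference at 2 hr was 2.00, and without the one with the next highest it was 1.85. Between arrays of 1 slide, treated minus vehicle was 1.86 for E2 at 2 hr (1 pair), 2.88 in both BPA pairs at 2 hr, 3.22 and 3.85 for HPTE at 2 hr, 2.89 for E2 at 24 hr, -0.80 and -0.51 for BPA at 24 hr, and 0.26 for HPTE at 24 hr. Ppp2r2c read 611 units on average on the vehicle arrays, where the sperm cell sum was highest (59290 to 200256). At 24 hr it read 3043 after E2 (sum 833 to 1757), 417 after BPA (6198 to 10897) and 571 after HPTE (2785 to 3584). At 2 hr it read 2301 after E2 (sum 1094 to 3022), 5592 after BPA (11876 to 24537) and 7730 after HPTE (3898 to 11092). The part of the sperm cell markers in these values was not tested.

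Ordered by geometric mean, Ppp2r2c was lowest after BPA at 24 hr (417 units), followed by HPTE at 24 hr (571), vehicle (611), E2 at 2 hr (2301), E2 at 24 hr (3043), BPA at 2 hr (5592) and HPTE at 2 hr (7730). Neighbours among the 3 lowest groups did not pass the test against each other (BPA with HPTE adjusted p = 0.36, HPTE with vehicle 0.81). The step from vehicle to E2 at 2 hr passed, and E2 at 2 hr and at 24 hr did not differ beyond their spread (log2 difference 0.40, adjusted p = 0.27). The arrays of E2 at 24 hr and BPA at 2 hr did not overlap, a pair that differs in both compound and time and was not tested.

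At 2 hr, Ppp2r2c was higher after BPA than after E2 (log2 difference 1.28, adjusted p = 0.0049) and after HPTE than after E2 (1.75, adjusted p = 0.00067), at doses that differ. The difference between BPA and E2 missed the threshold with spike-in scaling (1.44, adjusted p = 0.057) and with only those groups in the fit (1.28, adjusted p = 0.065). At 24 hr the order was turned, with BPA lower than E2 (log2 difference -2.87, adjusted p = 1.2e-06) and HPTE lower (-2.41, adjusted p = 9.9e-06). From 2 to 24 hr Ppp2r2c fell by 3.74 on the log2 scale after BPA (adjusted p = 6.9e-08) and by 3.76 after HPTE (adjusted p = 3.8e-08). The interaction of compound and time relative to E2 was -4.15 for BPA (adjusted p = 9.4e-07) and -4.16 for HPTE (adjusted p = 1.6e-06). The paper's RT-PCR of other wild-type mice gave another order at 2 hr: BPA and HPTE raised Ppp2r2c, but less than E2 did. There E2 was injected intraperitoneally in saline and the mice were of mixed strain. The part of these differences was not tested.

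Ppp2r2d, the delta B55 subunit with a role in mitotic exit, rose at 2 hr after all 3 compounds and did not pass the test against vehicle at 24 hr after any of them. Its vehicle arrays read 16848, 15541 and 15709 units. At 2 hr the arrays read 27150, 30277 and 31476 for E2, 34186, 42161 and 26855 for BPA, and 42023, 40611 and 39797 for HPTE, all above vehicle. At 24 hr all 8 treated arrays lay between 15227 and 17775, and each group overlapped vehicle. The log2 differences at 2 hr were 0.88 (E2, adjusted p = 5.6e-05), 1.08 (BPA, adjusted p = 4.7e-06) and 1.35 (HPTE, adjusted p = 5.2e-07), and those at 24 hr were 0.06, -0.05 and 0.01 (adjusted p between 0.71 and 0.97). Unlike Ppp2r2c, it fell from 2 to 24 hr after E2 too (log2 difference -0.82, adjusted p = 8.5e-05). With arrays centred on the median, the E2 value at 24 hr passed (0.41, adjusted p = 0.013).

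Ppp2r2a, the widely expressed alpha B55 subunit, rose less at 2 hr. The vehicle arrays read 6580, 6898 and 6967 units, and the 9 treated arrays at 2 hr read 7832 to 9969, with no overlap. The log2 differences were 0.27 for E2 (adjusted p = 0.0077), 0.41 for BPA (adjusted p = 0.00016) and 0.48 for HPTE (adjusted p = 3.4e-05). None of the 3 differences at 24 hr passed (0.12, -0.11 and -0.14). The E2 24 hr arrays (7168 and 7684) nevertheless lay above all vehicle arrays, as was so for 31.3% of all probes. The HPTE 24 hr arrays (6000 to 6394) lay below them, as was so for 28.2%. Its other probe gave 0.23, 0.53 and 0.45 at 2 hr, all past the threshold, and also passed at 24 hr for E2 (0.30, adjusted p = 0.0025) and HPTE (-0.21, adjusted p = 0.022), so the probes disagree at 24 hr. The E2 call at 2 hr was lost with slide as a fixed block (0.27, adjusted p = 0.052), with only the groups compared in the fit (0.27, adjusted p = 0.077) and with no scaling (0.04, adjusted p = 0.85).

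The genes of both catalytic subunits rose at 2 hr after each compound and remained high at 24 hr after E2. For Ppp2ca, the alpha catalytic subunit, the vehicle arrays read 8197, 8760 and 9651 units and the E2 24 hr arrays 14276 and 13914. The 2 hr arrays read 10616 to 11278 for E2, 13127 to 13834 for BPA and 12681 to 14339 for HPTE. These lay above all vehicle arrays, whereas the BPA and HPTE arrays at 24 hr (8727 to 9677) overlapped them. The log2 differences of Ppp2ca were 0.30 (E2, adjusted p = 0.0061), 0.60 (BPA, adjusted p = 1e-05) and 0.63 (HPTE, adjusted p = 4.8e-06) at 2 hr, and 0.67 (E2, adjusted p = 3.4e-06), -0.01 and 0.07 at 24 hr. The E2 call at 2 hr was lost with no scaling (0.07, adjusted p = 0.76) and with only the groups compared in the fit (0.30, adjusted p = 0.082). Ppp2ca was higher at 24 hr than at 2 hr after E2 (0.37, adjusted p = 0.00096), a call that was lost under quantile normalization (0.19, adjusted p = 0.070), normexp with quantile normalization (0.17, adjusted p = 0.10) and spike-in scaling (0.48, adjusted p = 0.26).

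For Ppp2cb, the beta catalytic subunit, the vehicle arrays read 3866, 3894 and 4274 units. The 2 hr arrays read 5307 to 6150 for E2, 6386 to 7664 for BPA and 6537 to 7080 for HPTE, and the E2 24 hr arrays read 5887 and 6670, all above vehicle. The log2 differences were 0.52 (E2, adjusted p = 0.00026), 0.79 (BPA, adjusted p = 3.2e-06) and 0.76 (HPTE, adjusted p = 3.7e-06) at 2 hr and 0.64 (E2, adjusted p = 2.2e-05), 0.14 and 0.18 at 24 hr. With no scaling the E2 call at 2 hr was lost (0.29, adjusted p = 0.12), and the HPTE value at 24 hr passed with arrays centred on the median (0.36) and under array weights (0.22). The second probes of Ppp2ca and Ppp2cb gave the same calls in these 6 comparisons, with differences of 0.37 to 0.70 (Ppp2ca) and 0.51 to 0.75 (Ppp2cb) at 2 hr.

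**Figure D2:**
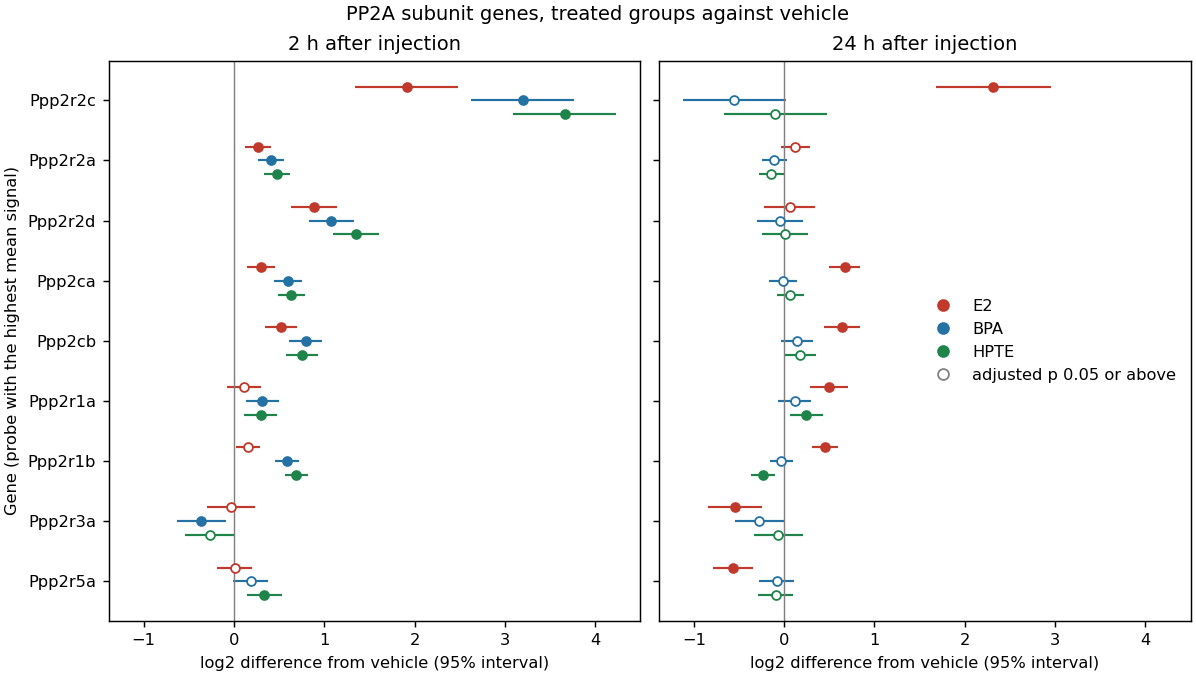
Log2 difference from vehicle of the main probe of each gene at 2 hr (left) and 24 hr (right), with 95% intervals from the fit, red for E2, blue for BPA and green for HPTE. Filled points have an adjusted p under 0.05, and the widest spread is in Ppp2r2c, from -0.55 to 3.66.

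By their main probes, the scaffold genes rose after the xenoestrogens at 2 hr and after E2 at 24 hr, and neither passed the test after E2 at 2 hr. Ppp2r1a, the main scaffold subunit, read 3986, 4670 and 5032 units in vehicle, 4602 to 5196 after E2 at 2 hr, 5501 to 5855 after BPA and 5258 to 5982 after HPTE at 2 hr. Its log2 differences at 2 hr were 0.11 (E2, adjusted p = 0.38), 0.31 (BPA, adjusted p = 0.0077) and 0.29 (HPTE, adjusted p = 0.011). At 24 hr the E2 arrays read 6581 and 6219 (0.49, adjusted p = 0.00038), and the differences were 0.12 for BPA (adjusted p = 0.42) and 0.25 for HPTE (adjusted p = 0.041). The HPTE call at 24 hr was lost in 13 of 34 alternatives. Among these it was lost without vehicle replicate 1 (0.15) or 2 (0.27), without BPA 24 hr replicate 1 (0.25) and without HPTE 24 hr replicate 1 (0.21), 2 (0.26) or 3 (0.27), and with spike-in scaling the value turned to -0.05. The HPTE call at 2 hr was lost without vehicle replicate 1 (0.20) and without HPTE 2 hr replicate 3 (0.24). With only the groups compared in the fit neither the BPA (adjusted p = 0.084) nor the HPTE (adjusted p = 0.082) call at 2 hr held, and with no scaling that of BPA did not (0.37, adjusted p = 0.072). The E2 value at 2 hr passed with arrays centred on the median (0.29, adjusted p = 0.048).

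The main probe of Ppp2r1b, the beta scaffold subunit, read 1381, 1591 and 1542 units in vehicle and 1660, 1664 and 1693 after E2 at 2 hr. After BPA and HPTE at 2 hr it read 2206 to 2281 and 2390 to 2469, and after E2 at 24 hr 2021 and 2100, with no overlap with vehicle. The log2 differences were 0.16 (E2, adjusted p = 0.068), 0.59 (BPA, adjusted p = 2.6e-06) and 0.69 (HPTE, adjusted p = 5.0e-07) at 2 hr, and 0.46 (E2, adjusted p = 2.8e-05), -0.03 (BPA, adjusted p = 0.78) and -0.23 (HPTE, adjusted p = 0.0077) at 24 hr. The E2 value at 2 hr passed without vehicle replicate 2 (0.20, adjusted p = 0.043), under both quantile normalizations (0.16 and 0.17) and with arrays centred on the median (0.34). The HPTE call at 24 hr was lost in 6 of 37 alternatives, among them slide as a fixed block (-0.24, adjusted p = 0.083), no scaling (-0.35, adjusted p = 0.058) and centring on the median (-0.05, adjusted p = 0.65). The probe that lists the accessions of both variants read 71 to 183 units over all arrays and gave 0.02, 0.74 and 0.58 at 2 hr and 0.78, 0.07 and -0.24 at 24 hr.

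The Ppp2r1b probe for transcript variant 1 behaved unlike the other two. Its vehicle arrays read 525, 193 and 147 units, and every treated array read between 27 and 104, with no overlap. The log2 differences from vehicle were -2.39, -1.41 and -1.80 at 2 hr for E2, BPA and HPTE and -2.98 and -2.38 at 24 hr for E2 and HPTE. The value for BPA at 24 hr lay between -2.38 and -1.80. All 6 passed the test, with adjusted p between 4.0e-06 and 0.0021. The sperm cell markers moved with it: their sum was 200256 on the vehicle array that read 525, 66259 and 59290 on the other vehicle arrays, 11876 to 24537 after BPA at 2 hr, 3898 to 11092 after HPTE at 2 hr, 1094 to 3022 after E2 at 2 hr, 6198 to 10897 after BPA, 2785 to 3584 after HPTE and 833 to 1757 after E2 at 24 hr. Between 7 and 11 of the 12 markers were well above background on every array of a group, and up to 4 were on no array of it (E2 24 hr). The part of these markers in the result was not tested. The mean over the 3 Ppp2r1b probes had the sign of this probe in the E2 comparisons (-0.74 at 2 hr and -0.58 at 24 hr). It had that sign too at 2 hr after BPA (-0.030, adjusted p = 0.87) and HPTE (-0.18, adjusted p = 0.25), without passing. At 24 hr after BPA it passed (-0.66, adjusted p = 0.0026). The rise of Ppp2r1b thus depends on the probe.

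**Figure D3:**
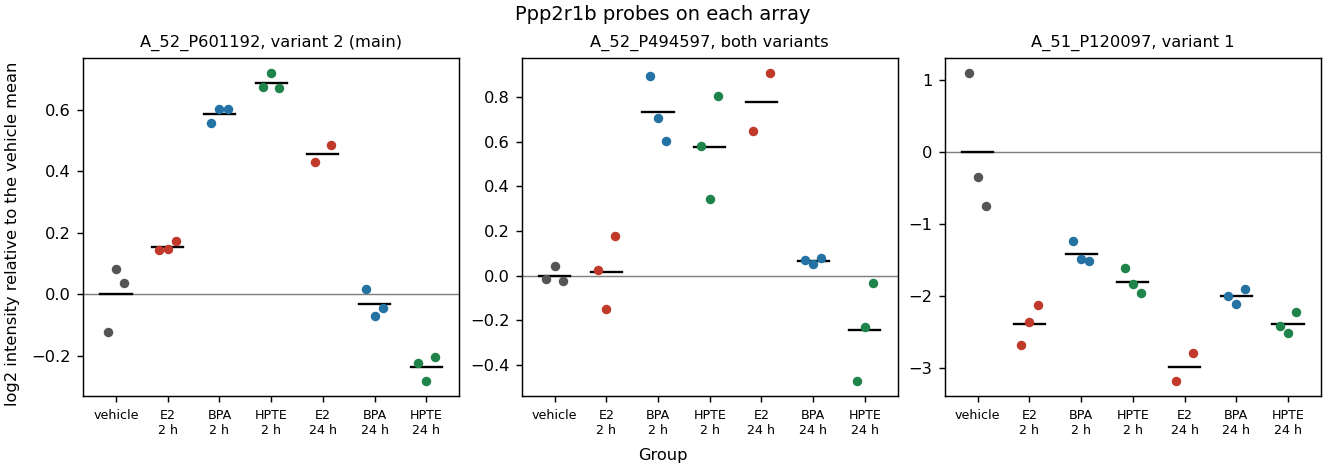
The 3 probes of Ppp2r1b on each array as log2 intensity relative to the vehicle mean of the same probe, with a point per array, replicates from left to right, a line at each group mean and an axis of its own per panel. The first and second probes rise after BPA and HPTE at 2 hr and E2 at 24 hr, and the variant 1 probe is highest on the vehicle arrays.

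Ppp2r5a, the alpha B56 subunit, fell after E2 at 24 hr. The vehicle arrays read 39110, 31600 and 36869 units and the E2 24 hr arrays 23593 and 24657, below all vehicle arrays (log2 difference -0.57, adjusted p = 0.00017). At 2 hr the HPTE arrays read 43931, 48396 and 43076, above all vehicle arrays (0.34, adjusted p = 0.0065), and the E2 (0.01) and BPA (0.18) values did not pass. The BPA value passed without BPA 2 hr replicate 3 (0.25, adjusted p = 0.045). The other probes of the gene gave 0.44 and 0.47 for BPA and 0.46 and 0.44 for HPTE at 2 hr, all past the threshold, so the probes disagree on BPA. At 24 hr after E2 these probes gave -0.27 (adjusted p = 0.052) and -0.40 (adjusted p = 0.0064), and after HPTE -0.24 (adjusted p = 0.083) and -0.41 (adjusted p = 0.0057). With arrays centred on the median the E2 call of the main probe at 24 hr was lost (-0.22, adjusted p = 0.077), and under quantile normalization the HPTE value at 24 hr passed (-0.27, adjusted p = 0.022).

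The probes named Ppp2r3a, for a B'' subunit, were low after E2 at 24 hr. Their identity is unsettled: the array places them on unassigned mm7 sequence (Un_random) under an accession that matched no RefSeq gene, and RefSeq lists Ppp2r3a also as an older name of Ppp2r3d. The main probe read 25697, 18662 and 21096 units in vehicle, 14961 and 14715 after E2 at 24 hr (log2 difference -0.54, adjusted p = 0.0035), and 15906, 16247 and 18408 after BPA at 2 hr (-0.36, adjusted p = 0.027). The BPA call was lost in 8 of 36 alternatives, among them without vehicle replicate 1 (-0.24), BPA 2 hr replicate 1 (-0.32) or 2 (-0.34). HPTE at 2 hr (-0.27, adjusted p = 0.093) passed without vehicle replicate 2 (-0.38, adjusted p = 0.033). The second probe gave -0.34 for BPA (adjusted p = 0.024) and -0.35 for HPTE (adjusted p = 0.022) at 2 hr, and -0.28 for E2 at 24 hr (adjusted p = 0.073). The E2 call of the main probe at 24 hr was lost with arrays centred on the median (-0.20, adjusted p = 0.25).

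**Figure D4:**
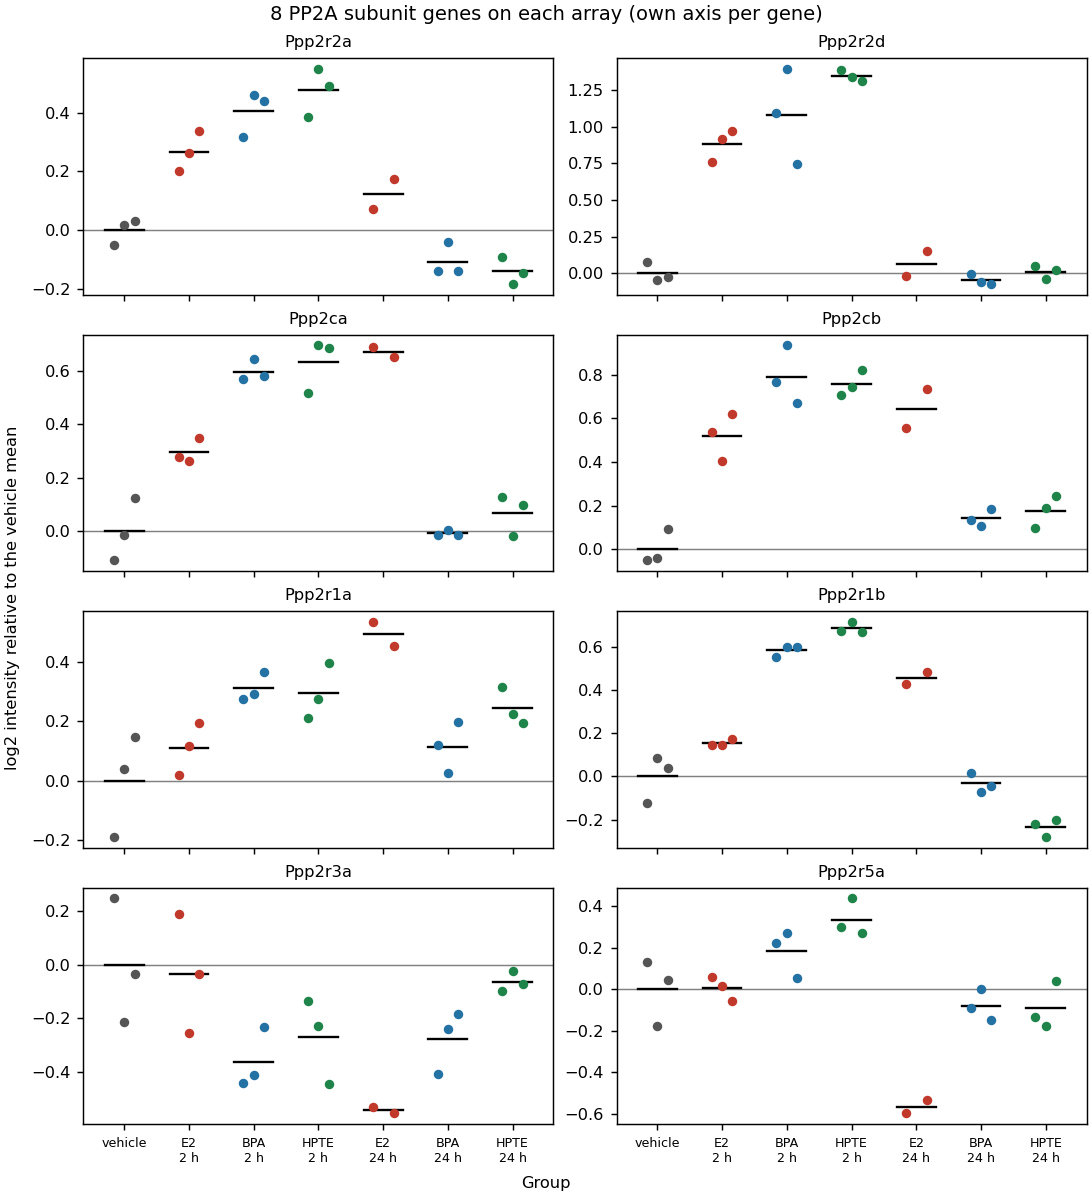
Log2 intensity of the main probe relative to the vehicle mean on each array for the other 8 genes, with a point per array, replicates from left to right, a line at each group mean and an axis of its own per gene. Ppp2r2d is high at 2 hr only, and Ppp2r2a is highest at 2 hr and slightly above vehicle after E2 at 24 hr. Ppp2ca, Ppp2cb and Ppp2r1b are also high after E2 at 24 hr, and Ppp2r5a and Ppp2r3a are low after E2 at 24 hr.

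Counted together over main probes, 5 of the 9 genes were higher than vehicle and none lower after E2 at 2 hr, where 28.1% of the 32460 probes tested passed (11.1% higher and 17.0% lower). After BPA at 2 hr, 7 were higher and 1 lower (49.4% of all probes passed, 19.3% higher and 30.2% lower). After HPTE at 2 hr, 8 were higher and none lower (48.1% of all probes passed, 19.9% higher and 28.2% lower). After E2 at 24 hr, 5 were higher and 2 lower (63.8% of all probes passed, 26.3% higher and 37.6% lower). After BPA at 24 hr, 0 of 9 passed with limma at an adjusted p under 0.05, and 1 (Ppp2r3a, -0.28) at an unadjusted p under 0.05 (13.1% of all probes passed after adjustment, 5.09% higher and 8.03% lower). After HPTE at 24 hr, 1 was higher and 1 lower (34.0% of all probes passed, 14.9% higher and 19.1% lower). The share of the 9 genes that passed in either direction was above that of all probes at 2 hr. It was also above it, by less, after E2 at 24 hr, and below it after BPA and HPTE at 24 hr. The genes were chosen with results of these arrays known, so these shares only describe the set. They also count the brightest probe of each gene, whereas the share of all probes counts every probe tested. The arrays of a gene lay above all vehicle arrays for 6, 7 and 8 genes after E2, BPA and HPTE at 2 hr, beside 16.2%, 21.7% and 23.7% of all probes, and for 6 genes after E2 at 24 hr, beside 31.3%. The median log2 difference of the 9 genes was 0.27, 0.59 and 0.63 after E2, BPA and HPTE at 2 hr, beside -0.06, -0.10 and -0.09 over all probes, and with no scaling the value for E2 was 0.04. With spike-in scaling, which rests on 8 probes, the genes called at 2 hr were Ppp2r2c alone after E2, Ppp2r2c, Ppp2r2d and Ppp2cb after BPA, and these with Ppp2ca and Ppp2r1b after HPTE, and at 24 hr Ppp2r2c alone after E2. With the main scaling, the median log2 difference of the 9 genes was 0.46 after E2 at 24 hr, beside -0.15 over all probes, and -0.05 and -0.06 after BPA and HPTE at 24 hr.

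BPA and HPTE, given at the same dose, differ in structure at the central carbon, which bears a pair of methyl groups in BPA and a trichloromethyl group with a hydrogen in HPTE. In 18 comparisons of main probes, 0 of the 9 genes passed the limma test between them at 2 hr (0.437% of all probes passed, 0.240% higher and 0.197% lower after HPTE) or at 24 hr (4.08% passed, 2.99% higher and 1.09% lower). At an unadjusted p under 0.05, 1 gene passed at 2 hr (Ppp2r2d) and 1 at 24 hr (Ppp2r1b). For Ppp2r2c the log2 difference of HPTE minus BPA was 0.47 at 2 hr (95% interval -0.10 to 1.04, adjusted p = 0.41) and 0.45 at 24 hr (-0.12 to 1.02, adjusted p = 0.36), and these intervals do not show that the compounds acted alike. For Ppp2r2d it was 0.27 at 2 hr (0.02 to 0.52, adjusted p = 0.28), and without BPA 2 hr replicate 2 it was 0.43 (adjusted p = 0.042). For the main Ppp2r1b probe it was -0.20 at 24 hr (-0.33 to -0.07, adjusted p = 0.070). Its arrays did not overlap there, as was so for 35.9% of all probes (18.1% higher and 17.8% lower after HPTE). That difference passed without vehicle replicate 1 (-0.20, adjusted p = 0.042). Ppp2r5a passed at 24 hr with another probe, A_52_P200155 (-0.56, adjusted p = 0.012), and with the mean over its probes (-0.31, adjusted p = 0.034), whereas its main probe gave -0.01 (-0.20 to 0.18). For Ppp2ca and Ppp2cb the intervals at 2 hr were -0.12 to 0.19 and -0.21 to 0.14. The change from 2 to 24 hr of HPTE against that of BPA passed in limma for 0 of the 9 genes, and for 1 (Ppp2r1b) at an unadjusted p under 0.05 (0.0863% of all probes passed after adjustment, 0.0462% higher and 0.0400% lower). It was -0.01 (-0.82 to 0.79) for Ppp2r2c.

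Set against E2, whose dose differed, 4 genes were higher after BPA at 2 hr (19.0% of all probes passed, 7.92% higher and 11.1% lower): Ppp2r2c (1.28), Ppp2ca (0.30), Ppp2cb (0.27) and Ppp2r1b (0.43). These counts are of main probes. Both other probes of Ppp2r5a (0.42 and 0.39, adjusted p = 0.012 and 0.015) and the second probe of Ppp2r2a (0.30, adjusted p = 0.0062) also passed for BPA, and the second probe of Ppp2cb did not (0.23, adjusted p = 0.10). The Ppp2ca call for BPA was lost with slide as a fixed block (0.31, adjusted p = 0.053), and the calls of Ppp2ca and Ppp2r1b for BPA and of Ppp2ca and Ppp2r5a for HPTE were lost with only those groups in the fit. The Ppp2cb call was lost without either E2 2 hr replicate 1 (0.28) or 2 (0.21), or BPA 2 hr replicate 1 (0.28) or 2 (0.20). After HPTE at 2 hr, 6 were higher (16.6% of all probes passed, 8.45% higher and 8.18% lower), namely Ppp2r2c (1.75), Ppp2r2a (0.21), Ppp2r2d (0.46), Ppp2ca (0.34), Ppp2r1b (0.53) and Ppp2r5a (0.33). Without BPA 2 hr replicate 3, Ppp2r2d also passed for BPA (0.36, adjusted p = 0.012), and without E2 2 hr replicate 2 Ppp2r3a did (-0.44, adjusted p = 0.040). Ppp2cb passed for HPTE without BPA 2 hr replicate 2 or 3 (0.24 in both). The Ppp2r2a call was lost in 19 of 36 alternatives, 12 of them with 1 array left out (0.17 to 0.21): vehicle replicate 2 or 3, E2 2 hr replicate 1 or 2, HPTE 2 hr replicate 2 or 3, or any array of BPA or HPTE at 24 hr. The Ppp2r2d call was lost without E2 2 hr replicate 1 (0.40) or HPTE 2 hr replicate 1 (0.44), and that of Ppp2r5a without E2 2 hr replicate 2 (0.34) or 3 (0.30) or HPTE 2 hr replicate 2 (0.28). These differences were below 0.6 on the log2 scale except that of Ppp2r2c.

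At 24 hr, 6 genes were lower after BPA than after E2 and 1 higher (57.8% of all probes passed, 24.6% lower and 33.2% higher). The 6 were Ppp2r2c (-2.87), Ppp2r2a (-0.23), Ppp2ca (-0.68), Ppp2cb (-0.50), Ppp2r1a (-0.38) and Ppp2r1b (-0.49), and Ppp2r5a was higher (0.49). After HPTE the same 6 were lower than after E2 (-2.41, -0.26, -0.60, -0.47, -0.25 and -0.69 in that order), and Ppp2r5a (0.48) and Ppp2r3a (0.48) were higher (48.8% of all probes passed, 21.6% lower and 27.3% higher). Both comparisons share the 2 E2 24 hr arrays. For Ppp2r5a, the other probes gave 0.03 (adjusted p = 0.86) and -0.019 (adjusted p = 0.91) for HPTE minus E2 and the mean over its probes 0.16 (adjusted p = 0.13), so its difference rests on the main probe. The second probe of Ppp2r3a gave 0.27 (adjusted p = 0.10). The Ppp2r2a call for BPA was lost in 8 of 36 alternatives, with -0.06 (adjusted p = 0.50) under quantile normalization and -0.23 (adjusted p = 0.074) with slide as a fixed block. Its HPTE call was lost under quantile normalization (-0.18, adjusted p = 0.078). Without E2 24 hr replicate 3, Ppp2r2a passed neither for BPA (-0.18) nor for HPTE (-0.21), and Ppp2r3a did not pass for HPTE (0.47). The Ppp2r1a call for HPTE was lost in 18 of 34 alternatives, with values of -0.58 to -0.16, and 9 of them left out 1 array (-0.29 to -0.21): replicate 2 of vehicle, E2 2 hr, BPA 2 hr or HPTE 2 hr, either E2 24 hr array, BPA 24 hr replicate 1, or HPTE 24 hr replicate 2 or 3.

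From 2 to 24 hr, 6 of the 9 genes changed after E2 (56.0% of all probes passed, 25.9% higher and 30.1% lower), with 3 higher (Ppp2ca, Ppp2r1a and Ppp2r1b) and 3 lower (Ppp2r2d, Ppp2r3a and Ppp2r5a). Of these, Ppp2r3a did not pass with its second probe (-0.15, adjusted p = 0.36), Ppp2r1b with the mean over its probes (0.16, adjusted p = 0.35) or Ppp2r1a with slide as a fixed block (0.32, adjusted p = 0.066). After BPA 7 fell and none rose (48.4% of all probes passed, 28.2% higher and 20.2% lower), and after HPTE 7 fell and none rose (54.1% of all probes passed, 29.5% higher and 24.6% lower). After both xenoestrogens the genes that fell were Ppp2r2c, Ppp2r2a, Ppp2r2d, Ppp2ca, Ppp2cb, Ppp2r1b and Ppp2r5a. The interaction of time with BPA against E2 passed for 7 genes (50.9% of all probes passed, 28.9% higher and 22.0% lower), with 6 lower and 1 higher. That with HPTE against E2 passed for 8 (46.1% of all probes passed, 25.4% higher and 20.7% lower), with 7 lower and 1 higher.

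The other PP2A subunit genes on the array, 9 of 10 named, showed calls in both directions. At 2 hr, 2 were higher and 2 lower after E2, 1 higher and 1 lower after BPA and 3 higher and 1 lower after HPTE, beside 28.1%, 49.4% and 48.1% of all probes that passed in either direction. At 24 hr these counts were 3 and 3, 0 and 1, and 1 and 3, beside 63.8%, 13.1% and 34.0% of all probes, so that after BPA at 2 hr fewer passed than among all probes. Ppp2r5b, the beta B56 subunit, rose at 2 hr (0.29, 0.29 and 0.43 for E2, BPA and HPTE). Ppp2r5c, the gamma B56 subunit, fell at 2 hr (-0.28, -0.44 and -0.32) and at 24 hr after E2 (-0.68, adjusted p = 4.0e-06) and HPTE (-0.25). Ppp2r2b, the beta B55 subunit, fell at 24 hr after all 3 compounds (-0.51, -0.62 and -0.73), with adjusted p of 0.038, 0.035 and 0.0061.

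Ppp2r3c, a B'' family member, rose at 24 hr after E2 (0.51) and HPTE (0.39). Ppp2r5e, the epsilon B56 subunit, fell after E2 at 2 hr (-0.32) and HPTE at 24 hr (-0.48), and Ppp2r5d, the delta B56 subunit, passed in no comparison with vehicle (0.01 to 0.17). Of the striatin genes, which encode B subunits of another family, Strn rose after E2 (0.23) and HPTE (0.32) at 2 hr and E2 at 24 hr (0.27), Strn4 rose after HPTE at 2 hr (0.36) and E2 at 24 hr (0.31), and Strn3 fell after E2 at 24 hr (-0.46).

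Of 13 genes that regulate PP2A, 8 were higher and 2 lower after E2 at 24 hr (63.8% of all probes passed, 26.3% higher), 6 higher and 2 lower after HPTE (34.0% passed, 14.9% higher) and 3 higher and 2 lower after BPA (13.1% passed, 5.09% higher). At 2 hr, 1, 1 and 3 were higher and 2, 3 and 2 lower after E2, BPA and HPTE, below the 28.1%, 49.4% and 48.1% of all probes. The median of the list after E2 at 24 hr was 0.36, beside -0.15 over all probes. Mastl, the kinase that switches off B55 complexes in mitosis, rose at 24 hr by 2.29 after E2 (adjusted p = 5.1e-08), 0.81 after BPA (adjusted p = 0.0038) and 1.32 after HPTE (adjusted p = 3.0e-05), and fell at 2 hr after BPA (-0.81) and HPTE (-0.85). Cip2a, an inhibitor of PP2A, rose at 24 hr by 1.99 (adjusted p = 1.5e-08), 0.92 and 1.53. Of the substrates through which Mastl acts, Arpp19 rose after E2 at 24 hr (0.76, adjusted p = 2.6e-07) and HPTE (0.23), and Ensa did not pass (0.04 after E2, adjusted p = 0.81). Arpp19 and Ensa were picked out after their values were seen.

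The related catalytic subunits Ppp4c and Ppp6c, named because they are the whole of their list, rose after BPA at 2 hr (0.47 and 0.51) and after E2 at 24 hr (0.65 and 0.65), and Ppp6c alone also passed after E2 (0.29) and HPTE (0.54) at 2 hr. Of 10 genes of the beta-catenin destruction complex, in which PP2A takes part, 2, 4 and 4 were higher and 1, 1 and 2 lower at 2 hr after E2, BPA and HPTE, and 1, 0 and 0 were higher and 2, 1 and 2 lower at 24 hr. These shares are close to those of all probes at 2 hr (28.1%, 49.4% and 48.1%) and below them at 24 hr (63.8%, 13.1% and 34.0%). Axin2, a scaffold of the complex and a Wnt feedback gene, rose at 2 hr (1.24, 0.83 and 0.95) and fell at 24 hr (-1.73, -0.65 and -0.68), all past the threshold. Amer1, which binds Apc, fell at 2 hr (-0.83, -1.70 and -1.71) and did not pass at 24 hr (-0.46, -0.06 and -0.33).

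The genes whose log2 intensity was most like that of Ppp2r2c over the 20 arrays were Tmem251 (Pearson r = 0.987), Gadd45gip1 (0.984), Slc7a6 (0.983), Pigm (0.983) and Tex2 (0.980). The arrays share groups and scaling, so these values are a description. After the group means were taken out, r was 0.77, 0.63, 0.57, 0.65 and 0.74. The ranks depended on the scaling, and Gadd45gip1 was at rank 70 with spike-in scaling. Their changes were smaller than those of Ppp2r2c, for example 1.01 (BPA) and 1.07 (HPTE) for Tmem251 and 1.38 and 1.61 for Tex2 at 2 hr. Among the main probes of the PP2A genes, r with Ppp2r2c was 0.95 for Ppp2cb, 0.93 for Ppp2r2a and Ppp2r1b, 0.91 for Ppp2ca, 0.88 for Ppp2r2d, 0.50 for Ppp2r1a, 0.38 for Ppp2r5a and -0.39 for Ppp2r3a. The other probes gave 0.79 and, for variant 1, -0.15 for Ppp2r1b, 0.58 and 0.53 for Ppp2r5a and -0.70 for Ppp2r3a. Those of Ppp2r2a, Ppp2ca and Ppp2cb gave 0.93, 0.88 and 0.94.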

How the data were processed

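RNA of 20 uteri in 7 groups, taken from the labels, was measured on one-color Agilent arrays. The authors extracted spot intensity with Agilent Feature Extraction 9.5; the deposited intensity values are background subtracted within the array and not scaled between arrays, and the deposited value table held the same numbers. Per the file headers, flags (coded 0 or 1, of type other) mark control, outlier and well-above-background spots. Here, control and outlier spots were left out, spots of 1 probe were averaged, and from the log2 intensity of each array its own 75th percentile was subtracted (1320 to 2046 units). A probe was tested if all arrays of some group had it well above background and if it was missing on at most 2 arrays and valued in each group (32460 of 41174). The number of arrays limits the precision.

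A means model over 7 groups was fitted with limma 3.58.1 in R 4.3.3, with 18 contrasts, two-sided tests and Benjamini-Hochberg adjustment over all probes within a contrast (called: adjusted p under 0.05). Each array held 1 uterus. The members, gene lists and tests were chosen with earlier results of these data known. Besides the members, the genes named were the 5 most like Ppp2r2c, all listed PP2A subunits and list genes called with an absolute log2 difference of 1 or more against vehicle. Ppp4c, Ppp6c, Arpp19, Ensa and the markers Krt8 and Krt19 fall outside this rule and were named after their values were seen. Marker lists of leukocytes, adipocytes and liver were also summed: 90162 to 270880, 6097 to 84655 and 11 to 1479 units over the 20 arrays. Alternatives were 5 other scalings, 2 other filters, slide, replicate number, array weights, other probes and leaving out each array. Probe positions are mm7 per the file headers; no exon annotation and no protein sequences were used here. The fit was tested on simulated data.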

Additional observations from a re-analysis of the deposited data

Results flagged for a closer look

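Changes between 2 hr and 24 hr after the same compound passed the test for most of the 9 genes and are set out here because the effect against vehicle differed between the times. Log2 differences of 24 hr minus 2 hr were -3.74 (BPA) and -3.76 (HPTE) for Ppp2r2c, -0.51 and -0.62 for Ppp2r2a, and -0.82 (E2), -1.13 (BPA) and -1.34 (HPTE) for Ppp2r2d. They were 0.37 (E2), -0.61 (BPA) and -0.57 (HPTE) for Ppp2ca, and -0.65 (BPA) and -0.58 (HPTE) for Ppp2cb. For Ppp2r1a only E2 passed (0.38), and for Ppp2r1b all 3 did (0.30, -0.62 and -0.92 for E2, BPA and HPTE). Ppp2r3a fell after E2 (-0.51), and Ppp2r5a fell after E2 (-0.57), BPA (-0.26) and HPTE (-0.43). The share of all probes past the threshold was 56.0% for E2, 48.4% for BPA and 54.1% for HPTE, and 6, 7 and 7 of the 9 genes passed. The BPA value of Ppp2r5a missed it without BPA 2 hr replicate 1 (-0.24) or 2 (-0.22), or BPA 24 hr replicate 1 (-0.26) or 3 (-0.23), and that of Ppp2r1a passed without vehicle replicate 1 (-0.20).

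The change over time also differed between compounds. For BPA minus E2 the interaction passed for 7 genes (50.9% of all probes passed): Ppp2r2c (-4.15), Ppp2r2a (-0.37), Ppp2ca (-0.98), Ppp2cb (-0.77), Ppp2r1a (-0.58), Ppp2r1b (-0.92) and Ppp2r3a (0.60). For HPTE minus E2 it passed for 8 (46.1% of all probes passed): Ppp2r2c (-4.16), Ppp2r2a (-0.47), Ppp2r2d (-0.52), Ppp2ca (-0.94), Ppp2cb (-0.71), Ppp2r1a (-0.43), Ppp2r1b (-1.22) and Ppp2r3a (0.72). Both sets share the E2 arrays. Leaving out E2 24 hr replicate 3 ended the call of Ppp2r3a for BPA (0.58) and of Ppp2r2d for HPTE (-0.43), and leaving out E2 24 hr replicate 2 ended that of Ppp2r1a for HPTE (-0.39). The call of Ppp2r2d for HPTE was also lost without E2 2 hr replicate 1 (-0.46), HPTE 2 hr replicate 1 (-0.50) or HPTE 24 hr replicate 2 (-0.49). Without BPA 2 hr replicate 3 the interaction of BPA passed for Ppp2r2d (-0.47), and without vehicle replicate 2 for Ppp2r5a (0.31).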

How the results depend on the processing

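Ppp2r2c kept its direction and its side of the threshold in the 4 comparisons with vehicle that passed, under all 34 alternatives, with values of 1.68 to 2.09 (E2 2 hr), 2.99 to 3.41 (BPA 2 hr), 3.46 to 3.93 (HPTE 2 hr) and 1.96 to 2.67 (E2 24 hr). Of these alternatives, 20 left out 1 array. Where that array lay in neither group compared, the difference itself could not change. Under array weights BPA at 24 hr passed (-0.76, adjusted p = 0.013; 0.013 to 0.67 over its alternatives). The count of genes called depended on the scaling and the fit. For E2 2 hr it fell from 5 to 2 with no scaling, 1 with spike-in scaling and 3 with only the groups compared. With spike-in scaling it fell from 8 to 3 for BPA 2 hr, from 8 to 5 for HPTE 2 hr and from 7 to 1 for E2 24 hr. For BPA 24 hr it rose from 0 to 1 under array weights and with the mean over probes. For HPTE 24 hr, 2 became 0 with no scaling, spike-in scaling, only the groups compared or slide as a fixed block, 1 with no filter on dim probes or without the later slide, 4 under array weights or the mean over probes, and 1 to 2 without each array. Spike-in scaling moved the median of all probes from -0.06 to -0.36 for HPTE 24 hr and from -0.09 to 0.15 for HPTE 2 hr, and no scaling moved it from -0.06 to -0.29 for E2 2 hr. For the first of these the median of the 9 genes was also -0.36.

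Signs turned with the probe. For Ppp2r1b the mean over probes gave -0.74 (E2 2 hr), -0.030 (BPA 2 hr), -0.18 (HPTE 2 hr) and -0.58 (E2 24 hr). The variant 1 probe gave -2.39, -1.41, -1.80 and -2.98 in the same comparisons, 0.97 (BPA minus E2) and 0.59 (HPTE minus E2) at 24 hr, -0.59 for E2 24 hr minus 2 hr and 0.0029 for the interaction of HPTE and E2. Ppp2r1a after HPTE at 24 hr gave -0.053 with spike-in scaling. For Ppp2r5a, probe A_52_P200155 gave -0.019 for HPTE minus E2 at 24 hr, and probe A_52_P108952 gave -0.41 for the interaction of HPTE and E2. The causes were not tested. Over the 9 genes and 18 contrasts, 5453 of 5760 values kept their sign and side of the threshold, 214 lost a call, 78 gained one and 15 turned. Many of these values come from leaving out an array outside the comparison, where the difference could not change. The share kept is therefore not a measure of how stable the calls are. Replicate numbers did not pair the arrays: over 57 pairs of the same number the median correlation of residuals was -0.05 (-0.36 to 0.33), and 5 of 20 arrays correlated best with their own number. Arrays of 1 slide did correlate more (median 0.11 over 25 pairs, 13 of them above 0.1) than arrays of other slides (-0.03 over 146 pairs). With slide as a fixed block, Ppp2r2a for E2 2 hr and Ppp2r1b and Ppp2r1a for HPTE 24 hr lost their calls against vehicle. With a replicate block the counts of genes called against vehicle were 5, 8, 8, 7, 0 and 2, and of 162 values the HPTE minus E2 value of Ppp2r1a at 24 hr lost its call (-0.22, adjusted p = 0.066).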
